A study of Arabidopsis thaliana with 18 samples.

Results

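Seeds of Arabidopsis thaliana accession C24 were compared at the first and second of the 3 harvests of this study: 3 arrays from 8-9 days after flower opening and 3 arrays from 10-11 days. These are 6 of the 18 arrays in the series, chosen by accession and harvest label alone, and all 19755 probe sets other than the array's own controls entered the test. The other 12 arrays hold C24 seeds at 12-13 days and seeds of the reference accession Col-0 at the same 3 harvests. C24 and Col-0 are natural accessions, and the plants were grown untreated in pots under long days. Each array carried RNA of dissected seeds from 48 siliques, 8 from each of 6 plants, and every pool held siliques of plants from 2 growth experiments. The pools of one stage may therefore share plants with each other and with the pools of the other stage. The p-values below therefore measure only the spread between pools, taken within the 6 groups of all 18 arrays.

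During seed development an Arabidopsis embryo leaves its phase of pattern formation and cell division and enters maturation. In maturation it takes up sugar, fills its cells with storage protein and oil, and later prepares to dry. Late embryogenesis abundant (LEA) proteins are hydrophilic proteins that accumulate toward drying. The embryo is green while it fills, and its chloroplasts feed oil synthesis. Around it, the endosperm is consumed, and the seed coat, which is maternal tissue, lays down mucilage, tannins and strengthened or suberised walls before its cells die. Bulk seed RNA holds all of these tissues, so fewer cells of a type and less of an RNA per cell cannot be told apart here.

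Levels are log2 hybridisation signals of Affymetrix ATH1 probe sets, kept only from probes identical in both accessions, with 3 or more such probes per set. A difference of 1 is therefore a 2-fold change, and levels of different probe sets are not comparable with each other. Levels are given as mean ± SD of 3 arrays, and differences with the standard error (SE) of a linear model fitted with limma. The adjusted p is Benjamini-Hochberg over all 19755 probe sets, and a probe set passed the test below 0.05. Of the probe sets, 11763 carry a single gene name, 1418 of them a symbol and not only a locus number, 61 carry several names and 7931 are unlisted in the table used here. Family names given below for loci without a symbol are general background on Arabidopsis and are not part of the deposited files.

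The step was broad, with rises and falls in similar number. In all, 9874 probe sets, 50.0% of those tested, passed the test, 4745 (24.0%) higher and 5129 (26.0%) lower at 10-11 days. Every count on a gene list below is to be read beside these shares of all probe sets. The median difference over all probe sets was 0.02. Changes of 2-fold or more were found in 2008 probe sets (10.2%), of which 984 (4.98%) rose and 1024 (5.18%) fell. The 3 arrays of one stage all lay above those of the other for 57.2% of probe sets. The large changes were uneven in direction: 128 probe sets rose by 3 or more on the log2 scale against 35 that fell by as much, and 64 against 12 reached 4. Single differences ran from -5.53 to 8.89. The share that passed grew with the mean level of the probe set, from 18.7% in the dimmest of 4 equal bins to 69.0% in the brightest.

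**Figure D1:**
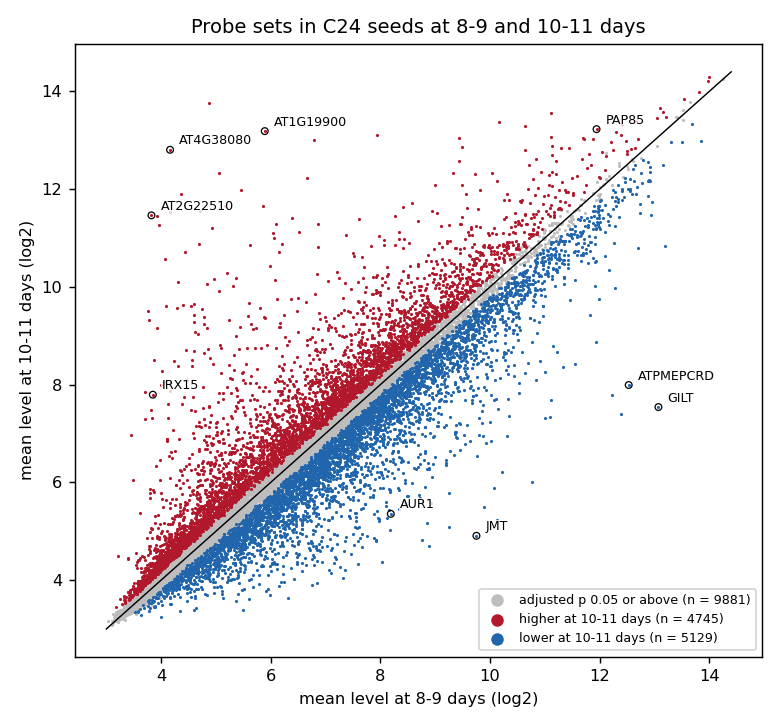
Mean level of each of the 19755 probe sets in C24 seeds at 8-9 days (x axis, log2) and 10-11 days (y axis, log2), 3 arrays each, with the diagonal marking no change. The 4745 red points passed the test as higher and the 5129 blue points as lower at 10-11 days, and the points farthest from the diagonal lie at the upper left, at low 8-9 days levels.

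Arrays of one stage correlated at 0.994 to 0.996 across probe sets (6 pairs) and arrays of different stages at 0.925 to 0.942 (9 pairs). On the array's control probe sets, the mean excess of 3' over 5' signal went from 2.02 to 1.78 (log2) for actin, from 1.85 to 1.58 for its second set, from 0.54 to 0.97 for GAPDH and from 0.27 to 0.32 for its second set; the ranges of the 2 stages overlapped each time, and the part of RNA quality in the results was not tested. Of markers of other tissues, none of 7 pollen genes passed the test. The brightest of them, SWEET8, went from 5.43 to 5.17 (adjusted p = 0.091). It was lower without the first 8-9 days array (-0.37, adjusted p = 0.0345), and in Col-0 it changed by -0.47 (adjusted p = 0.00537). ANX1 and ANX2, receptor kinases of the pollen tube, were near the floor, going from 3.45 to 3.52 and 3.54 to 3.55. ALC, a factor of the opening silique wall, went from 6.29 to 6.37 (adjusted p = 0.662). Seed identity was plain at both stages, with the oleosin OLEO3 going from 13.53 ± 0.07 to 13.63 ± 0.01. 

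The 15 named genes with the largest rises include several that encode proteins of the cell wall. AT4G38080, which encodes a hydroxyproline-rich protein, measured 3.95, 4.43 and 4.11 on the 8-9 days arrays and 12.81, 12.94 and 12.67 on the 10-11 days arrays. The 2 stages lay far apart, with a difference of 8.64 ± 0.11 or 399.8-fold (adjusted p = 4.08e-20). A second gene of this kind, AT2G22510, measured 3.74, 3.77 and 3.96 at 8-9 days and 11.61, 11.38 and 11.40 at 10-11 days, a difference of 7.64 ± 0.11. Another, AT5G09480, went from 6.79 ± 0.40 to 13.00 ± 0.04 and rose by 6.21. Structural wall proteins of this class are cross-linked into the wall matrix. Separation of the stages was a condition for naming these 15 genes and the 15 with the largest falls. It was also one for the list members with the largest changes, the genes that differed between accessions and those with opposite steps. It is therefore no result for any of them.

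Enzymes known to act on the wall were also among them. The class III peroxidase gene AT1G68850 measured 3.77, 3.91 and 4.08 at 8-9 days and 11.38, 11.52 and 11.44 at 10-11 days, a difference of 7.53 ± 0.12 (adjusted p = 5.25e-19). For the pectin methylesterase gene AT3G60730 the arrays read 4.46, 4.62 and 4.02 at 8-9 days and 11.88, 12.01 and 11.79 at 10-11 days, a difference of 7.53 ± 0.17. Pectin methylesterases remove methyl groups from pectin and so change its stiffness. AT1G19900, related to galactose and glyoxal oxidases, which release hydrogen peroxide, read 5.56, 6.80 and 5.31 at 8-9 days and 13.18, 13.30 and 13.08 at 10-11 days; the 8-9 days arrays spread by 0.80 (SD), small beside the difference of 7.30 ± 0.25. AT2G43880, of the polygalacturonase family, rose from 3.93 ± 0.17 to 9.16 ± 0.10, and the germin-like gene AT3G04170 rose from 4.71 ± 0.07 to 11.56 ± 0.26. Germin-like proteins sit in the wall matrix.

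Esterase, dirigent-like and lipid transfer genes were also among the 15. The GDSL-type esterase genes AT2G23540 and AT1G74460 rose by 6.52 ± 0.13 and 6.28 ± 0.12. AT2G21100, a dirigent-like gene of a family that steers phenolic coupling, measured 4.07, 4.02 and 4.12 at 8-9 days and 10.39, 10.76 and 10.55 at 10-11 days. AT2G48130, for a membrane-anchored lipid transfer protein of a class that carries lipids to the cell surface, read 6.10, 6.07 and 5.41 at 8-9 days and 11.61, 11.75 and 11.62 at 10-11 days, with the lower reading of the third 8-9 days pool still giving a difference of 5.80 ± 0.14. AT4G17215, AT2G47200 and AT5G45690, for which no role is given here, rose by 6.28, 5.75 and 5.57. An unlisted probe set, without a gene name here, had the largest rise of all, 8.89.

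The deepest fall belonged to GILT, named for a lysosomal thiol reductase. Its arrays read 13.01, 13.02 and 13.18 on the 8-9 days arrays and 8.84, 6.81 and 6.97 on the 10-11 days arrays. The first pool of the later stage stood about 2 units above its companions, with an SD of 1.13 at that stage. The SE of the 46.3-fold fall (-5.53 ± 0.37, adjusted p = 5.01e-10) draws on the spread within all 6 groups of the series. It therefore does not show the spread at this stage alone. JMT, which methylates jasmonic acid to its volatile ester, measured 9.58, 9.68 and 10.00 at 8-9 days and 5.63, 4.61 and 4.48 at 10-11 days and fell by 4.85. The pectin methylesterase gene ATPMEPCRD read 12.34, 12.55 and 12.70 at 8-9 days and 8.82, 7.27 and 7.88 at 10-11 days, a difference of -4.54 ± 0.27. Again the first 10-11 days pool was the highest of its stage, as it was for 13 of the 15 genes with the largest falls. The third 8-9 days pool was likewise the highest of its stage for 13 of these 15, and the second 10-11 days pool for 11 of the 15 largest rises; what sets these pools apart was not tested.

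The other large falls were of genes with varied roles. AT4G15750, like inhibitors of pectin methylesterase and invertase, fell from 10.13 ± 0.40 to 5.22 ± 0.55, and the pectin acetylesterase-like gene AT1G09550 from 11.09 ± 0.26 to 7.34 ± 0.32. AT5G48490, a lipid transfer protein gene related to DIR1, read 9.94, 9.94 and 9.81 at 8-9 days and 5.68, 5.41 and 5.39 at 10-11 days, a difference of -4.40 ± 0.14 with little spread among pools. Lipid transfer genes thus stood at both ends, AT2G48130 among the rises and AT5G48490 among the falls. The same held for GDSL-type esterases, since AT3G48460 fell by 3.46. AT1G50650, of the Stig1 family of small secreted proteins, fell by 4.02 and AT5G51950, of the glucose-methanol-choline oxidoreductases, fell by 4.19.

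The small peptide gene AT1G47400, of the IRONMAN family that reports iron shortage, read 9.22, 8.30 and 9.01 at 8-9 days and 5.19, 4.47 and 5.83 at 10-11 days and it fell by 3.68 ± 0.39 (adjusted p = 2.51e-07). The RING-finger gene AT1G72200 fell by 3.25, AT5G41250, of the exostosin-like glycosyltransferases, fell by 3.16, and AT3G52550, AT3G24250 and AT1G09310 fell, with differences of -3.66, -3.43 and -3.34. Among the 30 named genes of both ends, 9 had a stage mean below 4.41, the lowest 25th percentile of any of the 6 arrays. These were AT4G38080, AT2G22510, AT1G68850, AT3G60730, AT2G21100, AT2G47200 and AT2G43880 at 8-9 days and AT3G52550 and AT1G72200 at 10-11 days. Their folds depend on values close to the floor of the scale, and the deposited values carry no detection call.

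**Figure D2:**
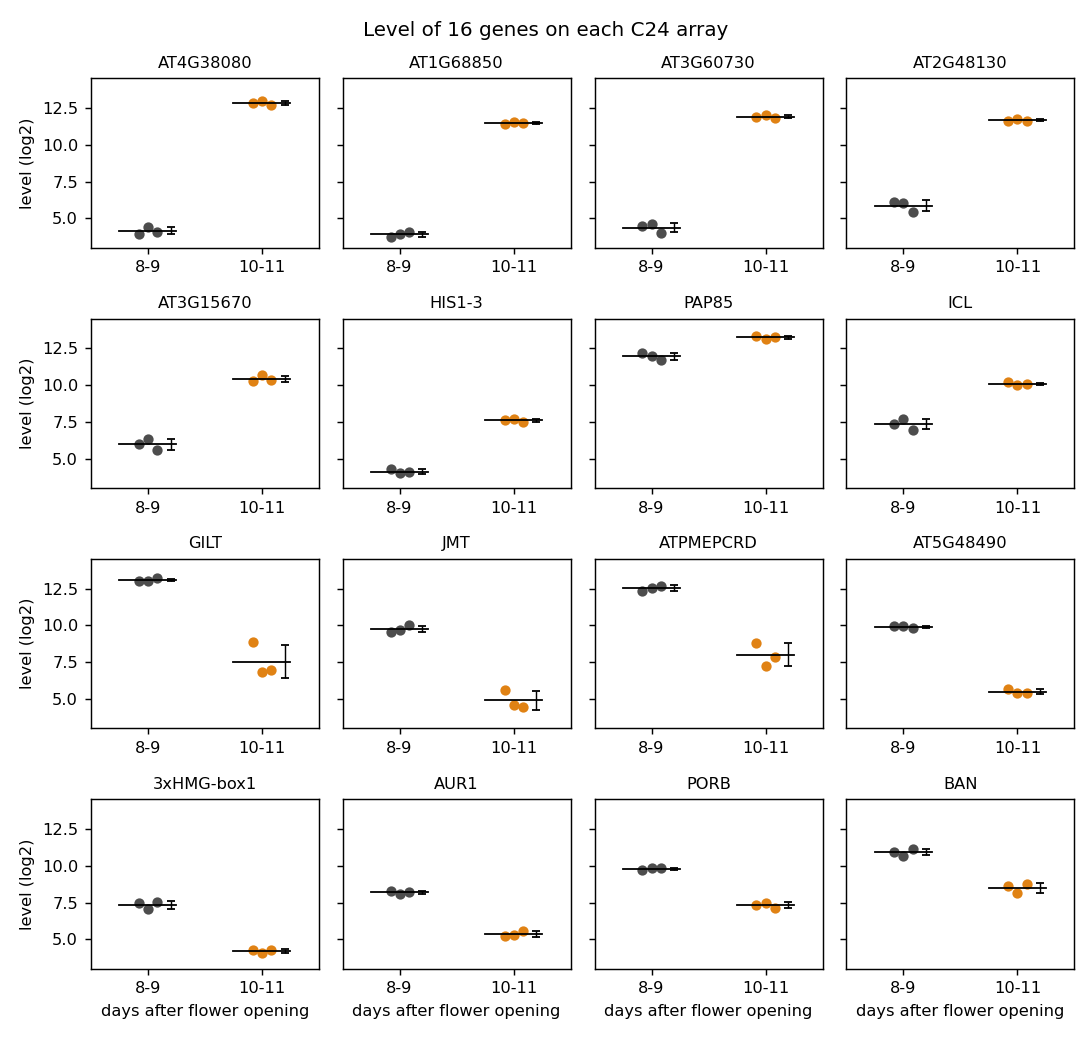
Level (log2, y axis) of 16 genes on each of the 3 arrays at 8-9 days (grey) and 10-11 days (orange); the line is the mean and the bar to its right the SD. The genes were chosen for not overlapping between stages, and the first 10-11 days pool stands above the other 2 for GILT, JMT and ATPMEPCRD.

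Storage protein genes rose. All 5 on the list passed the test as higher, where 24.0% of all probe sets did, with a median difference of 0.87 against 0.02 over all. AT1G03890, a cruciferin-like cupin of the main globulin class, read 11.35, 11.38 and 10.61 at 8-9 days and 13.61, 13.50 and 13.54 at 10-11 days, a difference of 2.44 ± 0.36. PAP85, a vicilin-like globulin, read 12.15, 11.99 and 11.69 at 8-9 days and 13.31, 13.11 and 13.26 at 10-11 days and rose by 1.28, and the vicilin-like AT2G28490 rose from 12.30 ± 0.28 to 13.17 ± 0.08. AT4G36700 rose from 12.48 ± 0.12 to 12.98 ± 0.13 and the weakly detected AT2G18540 from 4.34 ± 0.15 to 4.93 ± 0.26. The highest level of any probe set on the 6 arrays was 14.30. For oil bodies, neither OLEO3 nor the oleosin AT3G01570 passed the test, with differences of 0.10 ± 0.06 and 0.12 ± 0.07; centring each array on its median made the second 0.18 (adjusted p = 0.032).

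LEA genes mostly rose, where 24.0% of all probe sets rose and 26.0% fell. Of 23 measured, 13 rose and 2 fell, 10 of the rises by 2-fold or more, and the median was 0.91. AT3G15670 had the largest rise, reading 6.0, 6.36 and 5.61 at 8-9 days and 10.27, 10.67 and 10.34 at 10-11 days, a difference of 4.43 ± 0.24 (adjusted p = 2.73e-11). AT3G02480 read 9.52, 9.65 and 8.78 at 8-9 days and 12.16, 12.32 and 12.49 at 10-11 days and rose by 3.01. AT4G21020 rose by 3.00 and the dehydrin LEA by 2.59. For all 4 of these genes the third 8-9 days pool was the lowest of its stage. The exceptions were COR47, a dehydrin of cold and drought responses, which read 8.07, 8.08 and 8.13 at 8-9 days and 6.69, 6.76 and 6.74 at 10-11 days and fell by 1.36, and AT2G44060, which fell by 0.67. The other 8 LEA genes did not pass; apart from AT1G54410 and LEA18 their stage means lay between 3.75 and 4.68. EEL, a bZIP factor that acts on LEA promoters, rose from 9.19 ± 0.27 to 10.17 ± 0.01 (adjusted p = 3.32e-07), while BZIP53, an activator of storage genes, had a difference of 0.13 ± 0.09 (adjusted p = 0.236).

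Of 5 genes best known from reserve breakdown in the seedling, 3 rose and 1 fell, where 24.0% of all probe sets rose and 26.0% fell. ICL, the isocitrate lyase of the glyoxylate cycle, read 7.39, 7.71 and 6.98 at 8-9 days and 10.18, 10.02 and 10.05 at 10-11 days, a difference of 2.72 ± 0.14 (adjusted p = 2.62e-11). PPDK, which regenerates phosphoenolpyruvate from pyruvate, read 7.53, 6.85 and 6.80 at 8-9 days and 9.25, 9.37 and 9.02 at 10-11 days and rose by 2.15. SDP1, the main lipase of oil bodies, rose from 6.33 ± 0.08 to 7.50 ± 0.17. The stages did not overlap for these 3 genes, which was a condition for naming them. In the same list AIM1, a peroxisomal enzyme of fatty acid breakdown, fell by 0.52 and SDP1-LIKE did not pass. This list was drawn up with the array's gene names in view.

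Autophagy genes rose together: 9 of 10 passed as higher, against 24.0% of all probe sets, and none as lower, with a median of 0.89. ATG8 proteins coat the forming autophagosome. ATG8E read 7.01, 7.23 and 6.66 at 8-9 days and 8.45, 8.73 and 8.81 at 10-11 days, a difference of 1.70 ± 0.14. ATG8H rose by 1.13, APG8A and ATG8D by 0.91 and 0.91, ATG8C by 0.88, and ATG101 (AT5G66930), part of the kinase complex that starts the process, by 1.00. ATG3, the conjugating enzyme for ATG8, was the exception at 0.10 ± 0.07 (adjusted p = 0.224). Of 4 vacuolar proteases, ALPHA-VPE and GAMMA-VPE, which mature storage proteins in the vacuole, rose by 0.82 and 0.52, while DELTA-VPE went from 12.58 to 12.61 and CP1 from 4.42 to 4.38 without passing.

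Cell division genes fell. Of 12 probe sets on the mitosis list, 9 passed as lower and 1 as higher, with a median of -1.18 against 0.02 for all probe sets. AUR1, an Aurora kinase of the spindle, read 8.26, 8.07 and 8.24 at 8-9 days and 5.22, 5.27 and 5.58 at 10-11 days, a difference of -2.83 ± 0.14 (adjusted p = 7.57e-12). UBC20, a ubiquitin-conjugating enzyme of mitotic cells, read 7.89, 8.07 and 7.89 at 8-9 days and 5.30, 5.52 and 4.96 at 10-11 days and fell by 2.68. AUR3 read 6.26, 6.19 and 6.19 at 8-9 days and 4.14, 4.03 and 4.18 at 10-11 days and fell by 2.10, with very even pools. Another Aurora kinase, AUR2, fell by 0.75. Checkpoint genes BUB3.1, BUB3.2 and BUBR1 fell, with differences of -1.34, -1.09 and -0.39, and the centromeric histone HTR12 fell by 1.27. Of the 2 probe sets of FU, a kinase of cytokinesis, one fell by 1.61 and the other did not pass. UBC19, the brightest member of the list, went from 9.81 to 9.69 and did not pass either (adjusted p = 0.173). ATMAP65-6, a microtubule-bundling protein, was the 1 rise (0.38), and no member was higher without the third 8-9 days array or the first 10-11 days array.

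Replication genes fell without exception on the list of 5, with a median of -0.99. PRL, the MCM7 subunit of the replicative helicase, read 8.38, 8.07 and 7.93 at 8-9 days and 5.42, 5.33 and 5.04 at 10-11 days, a difference of -2.86 ± 0.18. POLA3 and ICU2, of the DNA polymerase alpha complex, fell, with differences of -1.39 and -0.99, POLD3 fell by 0.85 and PSF2, of the helicase's GINS partner, fell by 0.83. A further list of 13 division proteins, drawn up with the array's gene names in view, had 10 lower and 0 higher, median -0.77, and HBT, ATSMC2 and ATZW10 did not pass; 6 were lower without the dimmest 30% of probe sets, which removes members, and 1 was higher without the first 8-9 days array. 3xHMG-box1 and 3xHMG-box2, which bind condensed chromosomes, fell, with differences of -3.14 and -2.82, and TOPII, the topoisomerase that untangles chromosomes, fell by 2.19. For 3xHMG-box1 the arrays read 7.50, 7.05 and 7.51 at 8-9 days and 4.28, 4.05 and 4.29 at 10-11 days.

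Histone genes moved in both directions. The histone H2B gene HTB2 read 8.97, 8.98 and 8.60 at 8-9 days and 6.99, 5.83 and 6.0 at 10-11 days and fell by 2.58, HTB1 fell by 1.24 and HTB4 fell by 0.54. The linker histone gene HIS1-3, a variant known for its response to drought, went the other way, reading 4.29, 4.00 and 4.07 at 8-9 days and 7.61, 7.67 and 7.51 at 10-11 days, a difference of 3.48 ± 0.13 or 11.1-fold (adjusted p = 2.23e-13). MGH3, named for the male gamete, rose by 0.73 from a low level (4.38 to 5.10), and HON4 by 0.21. In all, 3 of 7 histone genes rose and 4 fell. Tubulins were lower in 5 of 7 cases and higher in none; TUB1 fell by 0.89, TUB7 fell by 0.75 and TUA6, which read 11.62, 11.57 and 11.64 at 8-9 days and 10.95, 10.69 and 11.07 at 10-11 days, fell by 0.71. SIM, an inhibitor of cyclin-dependent kinases that acts in the endocycle, rose by 0.45 (adjusted p = 0.000967).

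Photosynthesis genes fell. Of 8 photosystem and antenna genes, 7 fell and 1 rose, with a median of -0.69. LHCB4.2, a minor antenna protein of photosystem II, read 10.85, 10.82 and 10.76 at 8-9 days and 9.35, 9.23 and 9.38 at 10-11 days, a difference of -1.49 ± 0.12. LHCB4.1 fell by 1.40, PSAE-1 of photosystem I fell by 1.00 and its subunit PSAN fell by 0.85. PSB27, a photosystem II assembly factor, rose by 0.32, a call lost without the first 10-11 days array (0.25, adjusted p = 0.0516). All 4 Calvin cycle genes fell, with differences from -1.15 for RCA, the rubisco activase, to -0.49 for the phosphoglycerate kinase AT1G56190. For RCA the arrays read 11.77, 10.89 and 11.37 at 8-9 days and 10.30, 10.39 and 9.90 at 10-11 days, with uneven pools at both stages.

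Chlorophyll synthesis genes mostly fell: 7 of 11 were lower and 1 higher, median -0.86. PORB, which carries out the light-driven reduction of protochlorophyllide, read 9.70, 9.83 and 9.84 at 8-9 days and 7.33, 7.50 and 7.10 at 10-11 days, a difference of -2.48 ± 0.17 (adjusted p = 6.5e-10). HEME2 fell by 1.66, CHLM, the magnesium-protoporphyrin methyltransferase, fell by 1.56 and CHLI2, of the magnesium chelatase, fell by 1.35. HEMA2, of the first committed step, rose by 0.28, a call lost without the second 10-11 days array (0.17, adjusted p = 0.141). Thylakoid assembly and cyclic electron flow, a list drawn up with the gene names in view, had 17 of 24 lower and 1 higher, median -0.51. CaS, a thylakoid calcium-sensing protein, fell by 1.35 and LIL3:1, which holds chlorophyll synthesis enzymes at the membrane, fell by 1.03; LPA66 rose by 0.47.

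Starch genes fell, and fatty acid synthesis genes fell in part. All 6 starch genes passed as lower, with a median of -1.05. APL4 and APL3 are large subunits of ADP-glucose pyrophosphorylase, which makes the precursor of starch. APL4 read 6.04, 6.02 and 5.67 at 8-9 days and 3.92, 3.61 and 3.79 at 10-11 days. APL3 read 7.27, 7.26 and 7.28 at 8-9 days and 5.42, 5.35 and 5.77 at 10-11 days. Both fell, with differences of -2.13 and -1.75. DPE1, of starch breakdown, fell by 1.33 and the branching enzyme SBE2.2 fell by 0.76; the fall of the amylase AMY1 (-0.31) was lost in 4 of the 6 fits that left out 1 array (down to -0.23, adjusted p = 0.161, without the second 10-11 days array). Of 7 genes of plastid fatty acid synthesis, 4 fell and 1 rose, median -0.38. The dehydratase gene AT5G10160 fell from 10.80 ± 0.03 to 9.81 ± 0.09 and the thioesterase gene AT4G13050 fell by 0.73. FaTA, an acyl-carrier thioesterase, rose by 0.32, a call lost without the third 8-9 days array (0.23) or the second 10-11 days array (0.24). FATB went from 9.45 to 9.52 (adjusted p = 0.459).

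Changes in enzymes of carbon supply were under 2-fold, and over all probe sets 24.0% rose and 26.0% fell. Of 12 probe sets for the tricarboxylic acid cycle and pyruvate dehydrogenase, 6 fell and none rose, the largest being LTA3 of pyruvate dehydrogenase at -0.76 and SDH2-2 of succinate dehydrogenase at -0.54. ATP citrate lyase, which makes cytosolic acetyl-CoA, was lower in 3 of 4 genes, led by ACLA-2 at -0.61. Breakdown of branched-chain amino acids had 3 of 9 higher and 1 lower, with a median of 0.21; MGL, methionine gamma-lyase, rose by 0.78 and MCCB fell by 0.55, with 2 lower without the first 10-11 days array. These 3 lists were drawn up with the gene names in view.

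**Figure D3:**
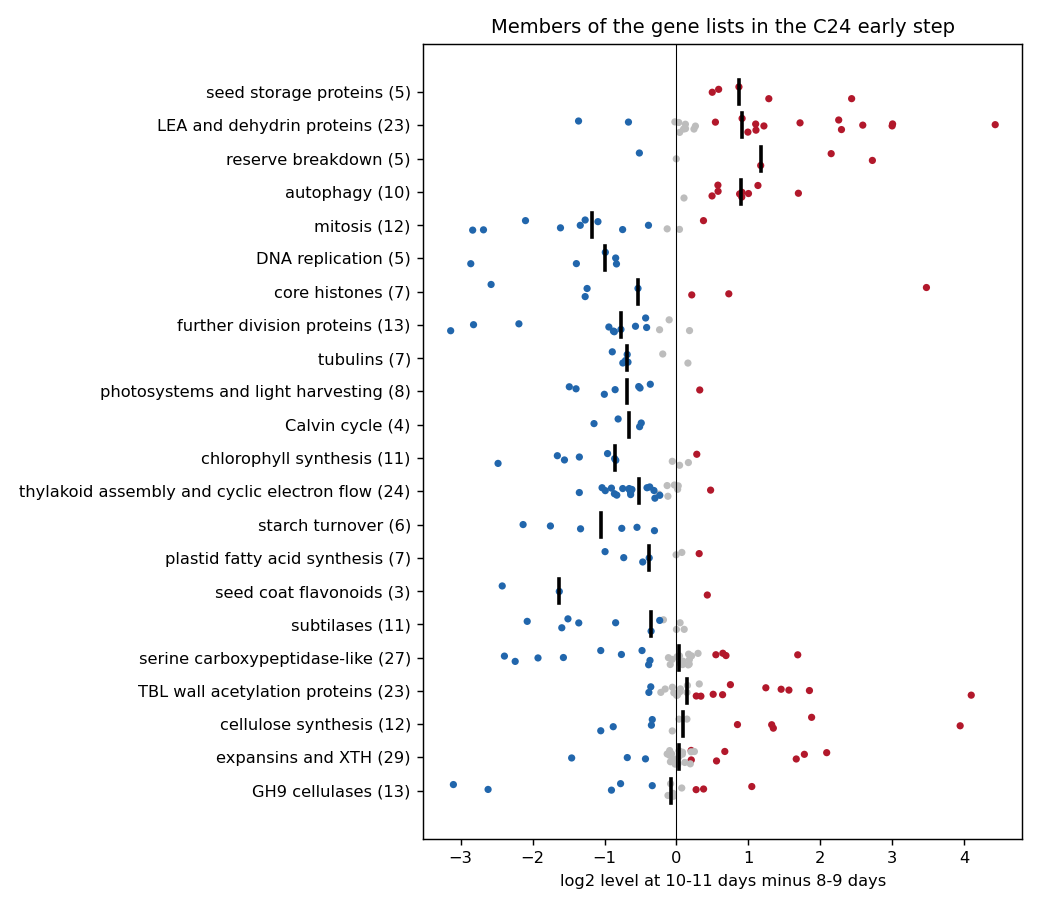
Difference in log2 level (10-11 days minus 8-9 days, x axis) of each member of 22 gene lists, with the number of probe sets in brackets; red points passed the test as higher, blue as lower, grey did not pass, and the bar is the median. The medians of the mitosis and replication lists are -1.18 and -0.99, and those of storage, LEA, reserve breakdown and autophagy between 0.87 and 1.17.

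Sugar carriers were mixed, where 24.0% of all probe sets rose and 26.0% fell. Of 20 carriers and related genes, 7 rose and 3 fell, with a median of 0.08, and 4 rose when the second 8-9 days array was left out. SWEET7 rose from 7.41 ± 0.14 to 8.57 ± 0.09. The carriers of filling seeds, SWEET11 and SAG29 (SWEET15), which release sucrose toward the embryo, rose by 0.29 and 0.68. For SAG29 the arrays read 11.55, 11.63 and 11.60 at 8-9 days and 12.27, 12.22 and 12.34 at 10-11 days. AtVEX1 (SWEET5) fell by 0.82, and SWEET17 fell by 0.49.

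Seed coat genes of tannin and mucilage fell. BAN, the anthocyanidin reductase of the tannin pathway, read 10.93, 10.69 and 11.12 at 8-9 days and 8.61, 8.12 and 8.73 at 10-11 days, a difference of -2.42 ± 0.16 (adjusted p = 5.19e-10). DFR, upstream in the same pathway, read 9.83, 9.99 and 10.24 at 8-9 days and 8.32, 8.51 and 8.34 at 10-11 days and fell by 1.63. UF3GT, which decorates anthocyanins, rose by 0.43 (adjusted p = 0.0187), a call lost without the second array of either stage (0.31 and 0.33). Both mucilage genes fell: AT3G50990 (PER36), a peroxidase that loosens the outer wall of mucilage cells, fell by 1.71, and ARA12 (SBT1.7), a subtilase needed for mucilage release, fell by 1.36. ARA12 read 12.07, 12.27 and 12.45 at 8-9 days and 11.00, 10.87 and 10.85 at 10-11 days.

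Secreted proteases were covered by a pair of lists. Of 11 subtilases, 7 fell, ARA12 among them, and none rose; SBT5.4 fell by 2.08, SBT1.3 fell by 1.59 and SBT4.13 fell by 1.51. Serine carboxypeptidase-like genes, whose products cleave peptides or transfer acyl groups, had 9 of 27 lower and 4 higher, with a median of 0.04, where 26.0% of all probe sets were lower and 24.0% higher. scpl35 read 11.52, 11.73 and 12.21 at 8-9 days and 9.48, 9.38 and 9.42 at 10-11 days and fell by 2.39. For scpl20 the arrays read 11.67, 11.99 and 12.29 at 8-9 days and 9.80, 9.62 and 9.81 at 10-11 days, a difference of -2.24. SCPL34 fell by 1.93, while scpl47 rose by 1.69, scpl46 by 0.69 and scpl48 by 0.64. With each array centred on its median, 7 of these genes were higher.

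Wall polysaccharide genes moved in both directions, where 24.0% of all probe sets rose and 26.0% fell. IRX15, needed for xylan of normal length, went from 3.85 to 7.79 and rose by 3.95, and its close relative IRX15-L rose by 1.35. The cellulose synthase-like CSLC5, of a family that makes the xyloglucan backbone, rose by 1.88 and CSLD2 by 1.32, while CSLC04 of the same family as CSLC5 fell by 0.88 and the xylan gene GUT2 fell by 1.05. In all, 5 of these 12 genes rose and 4 fell (2 without the third 8-9 days array or the first 10-11 days array). TRICHOME BIREFRINGENCE-LIKE (TBL) genes, whose products acetylate wall polymers, had 10 of 23 probe sets higher and 2 lower. TBL30 read 4.50, 4.91 and 4.36 at 8-9 days and 8.79, 8.72 and 8.56 at 10-11 days, a difference of 4.10 ± 0.13, followed by TBL37 (1.85), TBL26 (1.56) and TBL28 (1.46). TBL39 and TBL38 fell, with differences of -0.38 and -0.36; TBL38 missed the threshold without the third array of either stage (-0.23 and -0.30), and 4 members were lower without the second 10-11 days array.

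Wall-loosening genes were mixed, with counts to be set against 24.0% of all probe sets higher and 26.0% lower. Of 29 expansins and xyloglucan-modifying enzymes (XTH), 7 rose, 3 fell and 19 did not pass. EXPA16 read 6.95, 7.06 and 7.26 at 8-9 days and 9.28, 9.11 and 9.15 at 10-11 days and rose by 2.09, XTH32 rose by 1.78 and EXPA15 by 1.67. EXLA1, an expansin-like protein, went from 12.10 ± 0.12 to 10.64 ± 0.09, and fell by 1.46. The GH9 cellulases, which trim cellulose, had 5 of 13 lower and 3 higher: GH9B5 read 7.53, 7.86 and 8.39 at 8-9 days and 4.85, 4.83 and 4.80 at 10-11 days and fell by 3.10, GH9C1 fell by 2.62, and GH9C2 rose by 1.05. Of the 5 listed pectin methylesterases, ATPMEPCRD and PMEPCRF fell (-4.54 and -1.13). The small rises of PME61 (0.30) and AT4G02300 (0.39) came down to 1 or 0 calls when any single array was left out. This list does not hold the pectin methylesterase gene AT3G60730, described above, which rose by 7.53. It also lacks the inhibitor-like AT4G15750 (-4.91), so it does not give the direction of the whole family.

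FACT, which joins caffeic acid to fatty alcohols of suberin waxes, rose from 5.04 ± 0.18 to 7.65 ± 1.34. Its 10-11 days pools read 6.18, 7.95 and 8.81 (SD 1.34), against 5.03, 4.86 and 5.22 at 8-9 days. The first 10-11 days pool lay nearest to the earlier stage, as it did for GILT, JMT and ATPMEPCRD. AT4G13840 (CER26), of wax elongation, went from 10.88 to 10.94 and did not pass.

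Gene families of small-molecule metabolism were mixed, with counts to be set against 24.0% of all probe sets higher and 26.0% lower. Of 50 UDP-glycosyltransferases, which attach sugars to hormones and phenolics, 19 rose and 8 fell, median 0.12; 12 rose without the second 8-9 days array or without the dimmest 30% of probe sets, and 5 fell without the third 10-11 days array. UGT88A1 and UGT84B1 fell, with differences of -2.88 and -2.27, and UGT71B1 and UGT85A7 rose by 1.91 and 1.60. Cytochromes P450 on the list, 23 mostly of the CYP71B group, had 8 higher (5 without the dimmest 30% of probe sets) and 1 lower; CYP78A9, of a family that promotes seed size, rose by 3.74 and CYP71B37 by 2.54. Beta-glucosidases were 8 higher and 4 lower of 21, with differences of 2.86 for BGLU19, 1.33 for BGLU46, -1.35 for BGLU44 and -1.21 for BGLU45. BGLU19 read 4.19, 4.23 and 4.23 at 8-9 days and 6.79, 7.51 and 6.92 at 10-11 days. Tau-class glutathione transferases had 5 of 11 lower, led by GSTU18 (-0.78), and 1 higher, GSTU26 (1.33); 3 were lower without the second 8-9 days array or the first 10-11 days array, and 2 were higher without either of these or the second 10-11 days array. With each array centred on its median, 3 were higher and 3 lower.

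AGAMOUS-like MADS-box factors gave 12 rises and 1 fall among 37, where 24.0% of all probe sets rose and 26.0% fell, with a median of 0.12 and 7 rises without the dimmest 30% of probe sets. All but 3 of the rises were under 2-fold. AGL67 read 5.12, 5.03 and 5.14 at 8-9 days and 8.34, 8.10 and 8.30 at 10-11 days, a difference of 3.15 ± 0.13 (adjusted p = 6.42e-13). AT1G30260, which is on the list by a match of locus or name alone, rose by 1.73. AGL19 rose by 1.15, and AGL87 fell by 0.57. Of 7 endosperm and early seed regulators only IKU1, of the HAIKU pathway of endosperm growth, passed (0.40); AGL62, a repressor of endosperm cellularisation, read 3.54 to 3.63, near the floor at both stages.

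Hormone lists held few large changes, with counts to be set against 24.0% of all probe sets higher and 26.0% lower. On the jasmonate list of 4, JMT fell and OPCL1, a ligase of jasmonate synthesis, rose by 0.51; 2 were lower without the third 8-9 days array. Among 16 auxin genes 6 rose and none fell, the largest being IAA29 (0.72), IAA34 (0.49) and YUC4, of auxin synthesis (0.44). Of 6 cytokinin response regulators, RR16 rose from 6.60 ± 0.14 to 8.26 ± 0.27, RR19 rose by 0.41 and ARR15 fell by 0.57. With each array centred on its median 4 of the 6 were higher, and without the dimmest 30% of probe sets 1 was. RR22 had a difference of 0.25 (adjusted p = 0.0695) and passed under some alternatives, among them centring (0.31) and leaving out the first 8-9 days array (0.33). GID1A, a gibberellin receptor, fell from 7.53 ± 0.25 to 6.17 ± 0.09, and GID1B, GID1C and SLY1 did not pass.

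Lists of transcription, folding and turnover were mixed, where 24.0% of all probe sets rose and 26.0% fell. Nuclear RNA polymerase subunits had 3 of 12 higher, led by NRPC2 of polymerase III (1.36), and 6 lower, led by NRPB9B (-0.76). Protein folding in the endoplasmic reticulum had 3 of 12 higher and 4 lower, with BZIP17, a stress sensor, at 0.59 and the calreticulin CRT1b at -0.67. Ubiquitin-conjugating and U-box proteins had 4 of 20 higher and 2 lower; PUB43 rose from 4.34 ± 0.05 to 6.26 ± 0.09, and the falls were of UBC20, described above (-2.68), and UBC22 (-0.97). Tetraspanins were 5 higher and 3 lower of 13, from TET3 (-1.32) to TET8 (0.73), with 3 higher without the first 8-9 days array, the third 8-9 days array or the second 10-11 days array. Of 4 heat shock genes, HSA32 rose by 0.90 and Hsp70-2 fell by 1.30; AT1G53540 also rose, by 0.23, and 1 member in place of 2 was higher without the first or second array of either stage. Of 7 cold and drought genes 3 rose, COR27 (1.03), XERICO (0.97) and DI19 (0.35, lost at 0.25 without the first 10-11 days array), and of 7 genes of ER bodies and jacalins only JAL23 (0.54). The ribosomal protein gene PGY1 fell by 0.40, and the proteasome subunit RPN12a went from 9.99 to 9.95 without passing.

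The same step in Col-0 uses none of the C24 arrays. There 8548 probe sets (43.3%) passed the test, 3941 (19.9%) higher and 4607 (23.3%) lower. The change in C24 differed from that in Col-0 for 1604 probe sets (8.12%), 766 (3.88%) toward higher and 838 (4.24%) toward lower in C24, and by 2-fold or more for 349 (1.77%). Of the 1604, 1305 (6.61% of all tested) also passed the test within C24. Opposite calls in the 2 accessions, with the difference itself past the threshold, were found for 113 probe sets (0.572%), 50 of them higher in C24 and lower in Col-0.

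IRX15 had the largest difference among named genes. In C24 it read 3.80, 3.86 and 3.88 on the 8-9 days arrays and 7.71, 8.08 and 7.59 on the 10-11 days arrays, and in Col-0 it went from 3.84 to 3.73, so its rise of 3.95 ± 0.12 in C24 had no counterpart in Col-0 (-0.11). The difference between the steps was 4.05 ± 0.17 (adjusted p = 7.37e-11). The C24 mean of IRX15 at 8-9 days and its Col-0 means lay below 4.41, the 25th percentile given above. The size of this difference therefore depends on values close to the floor of the scale. AT1G75280, like isoflavone reductases, rose in C24 by 1.55 and changed by -1.26 in Col-0, a difference of 2.80 ± 0.24. The cysteine protease gene AT3G43960 likewise moved in opposite directions, by 0.62 and -2.18.

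AT2G43660 and AT3G23450 fell steeply in Col-0 (-3.16 and -3.31) but only slightly in C24 (-0.37 and -0.92), where AT2G43660 was already low at 8-9 days. AT2G43660 went from 4.22 to 3.84 in C24 and 7.44 to 4.28 in Col-0. AT1G14930, of the major latex protein-like family, rose by 4.01 in C24 and 1.70 in Col-0.

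In the other direction, AT5G41250 fell in C24 and was low at both stages in Col-0. Its C24 arrays read 9.74, 10.06 and 10.23 at 8-9 days and 6.95, 6.74 and 6.87 at 10-11 days, while Col-0 stood at 4.48 to 4.48, and the steps differed by -3.15 ± 0.23 (adjusted p = 9.26e-08). Iron-responsive AT1G47400 fell by 3.68 in C24 and changed by -1.33 in Col-0. The germin-like gene AT3G04200 fell in C24, reading 8.33, 7.96 and 7.55 at 8-9 days and 6.74, 6.79 and 7.54 at 10-11 days, and rose by 1.26 in Col-0, a difference of -2.18 ± 0.26. Its lowest 8-9 days and highest 10-11 days readings in C24 were 7.55 and 7.54, so the stages were barely apart.

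CYP78A9, AT1G14950 and the lipid transfer protein gene AT1G05450 rose in both accessions, but less in C24. CYP78A9 read 5.02, 5.04 and 5.14 at 8-9 days and 8.58, 8.87 and 8.97 at 10-11 days in C24 and went from 4.47 to 10.71 in Col-0, a difference between the steps of -2.49 ± 0.21. AT1G14950 went from 9.43 to 13.05 in C24 and from 6.74 to 12.83 in Col-0, so the later levels were close and the earlier ones apart. The same shape held for AT1G05450, at 8.94 to 11.56 in C24 and 6.39 to 11.21 in Col-0. The differences of the steps were -2.47 ± 0.42 and -2.20 ± 0.44.

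**Figure D4:**
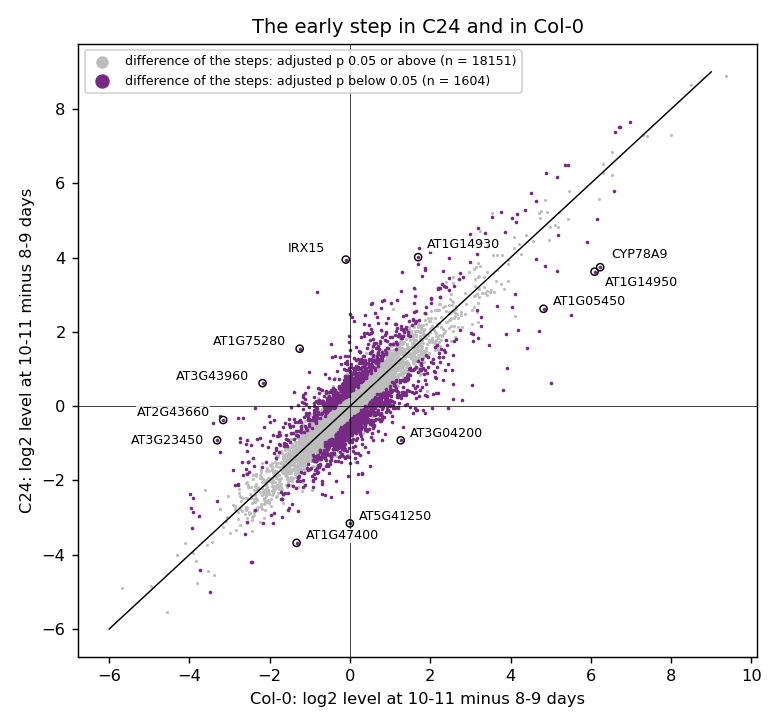
Change in log2 level from 8-9 to 10-11 days in Col-0 (x axis) and in C24 (y axis) for each probe set, with the diagonal marking equal change; purple points are the 1604 whose change differed between the accessions. Most points follow the diagonal, and IRX15 and AT5G41250 lie near 0 for Col-0 but at 3.95 and -3.16 for C24.

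Members of the lists were also tested for a difference between accessions, which 8.12% of all probe sets passed. On lists of few members, as those of storage protein, mitosis and replication genes are, no pass at all is near that share. No storage protein gene passed that test, although AT1G03890 rose by 2.44 in C24 and 4.10 in Col-0 (adjusted p = 0.0543). Among LEA genes AT3G02480 rose less in C24 (3.01 against 4.11, adjusted p = 0.0125), and COR47 fell by 1.36 in C24 against -0.11 in Col-0, a difference of -1.26 ± 0.16 (adjusted p = 5.78e-05). 3xHMG-box1 fell more in C24 (difference -1.22 ± 0.20), and APL4 also (-1.02 ± 0.25). No gene of the mitosis and replication lists passed. Seed coat DFR and AT3G50990 fell less in C24, with differences of -1.63 and -1.71 against -2.20 and -2.91 in Col-0 (adjusted p = 0.0154 and 0.00458). UF3GT rose by 0.43 in C24 and changed by -0.70 in Col-0, a difference of 1.12 ± 0.20 (adjusted p = 0.00166). AMY1 changed by -0.31 in C24 and 0.83 in Col-0, a difference of -1.14 ± 0.17 (adjusted p = 0.000226). BGLU19 rose more in C24, with a difference of 1.69 ± 0.29, and so did TBL30 (0.94 ± 0.19).

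The early step was also set against the next one in C24, from 10-11 to 12-13 days. Both steps use the same 10-11 days arrays, so a high reading there raises one and lowers the other. No count of the overlap between the steps is given. In the late step 5085 probe sets (25.7%) passed the test, 2307 (11.7%) higher and 2778 (14.1%) lower. The steps differed for 5501 probe sets (27.8%). Of the 5 storage protein genes none passed in the late step, and PAP85 changed by 0.10 after its early rise of 1.28. Of 23 LEA genes 13 passed as higher in the late step, AT3G15670 by 2.31 after 4.43. Division genes had 3 of 12 lower in the late step on the mitosis list, where AUR1 changed by -0.37 (adjusted p = 0.0536), and photosystem genes 7 of 8, with LHCB4.2 changing by -0.87. BAN changed by -0.22 (adjusted p = 0.36) after -2.42 in the early step, and FACT rose by 4.76 in the late step (early minus late -2.15 ± 0.78, adjusted p = 0.0485).

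Some genes passed in both steps with opposite signs, and 5 of each kind with the largest difference between the steps are named. The shared 10-11 days arrays favour opposite signs, and their part in these reversals was not tested. AT1G21540 rose from 4.60 ± 0.05 to 9.42 ± 0.16 and then changed by -2.12 (adjusted p = 3.44e-11). Its early arrays read 4.61, 4.65 and 4.54 at 8-9 days and 9.59, 9.28 and 9.39 at 10-11 days. AT4G38080, AT1G74460, AT2G21100 and AT4G17215 rose and then changed by -0.36, -0.63, -0.38 and -0.36. Of genes that dipped, AT1G02700 fell from 8.93 ± 0.15 to 6.12 ± 0.09 and regained 0.84, and AT4G01140 fell by 1.83 and regained 1.03. AT3G08030, AT2G16890 and AT1G14970 fell, with differences of -2.42, -1.94 and -2.11 and regained 0.42, 0.81 and 0.62.

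**Figure D5:**
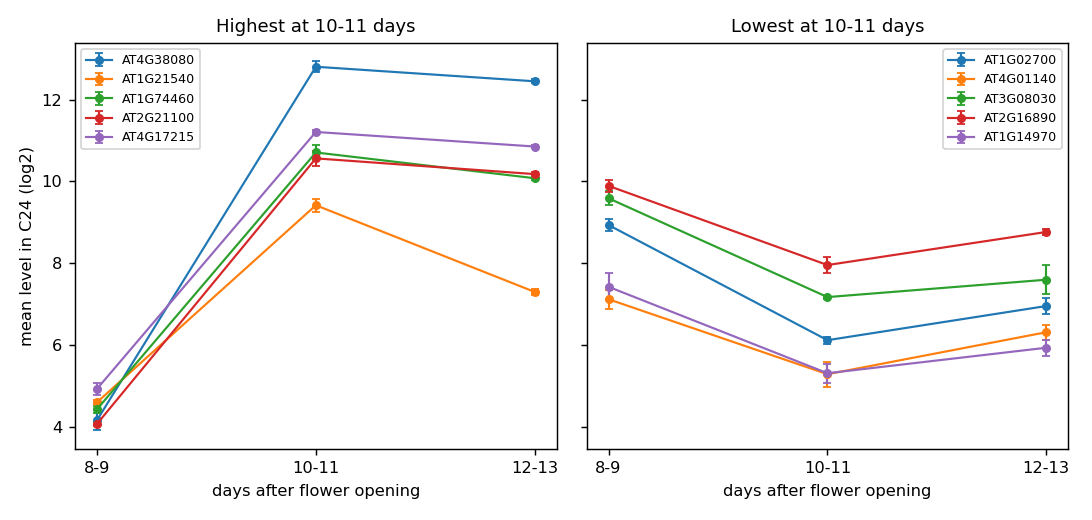
Mean level (log2, y axis) in C24 seeds at the 3 harvests (x axis, days after flower opening), with bars for the SD of 3 arrays, for 5 genes highest at 10-11 days (left) and 5 lowest at 10-11 days (right). AT1G21540 changes by -2.12 after its rise of 4.82, and the other 4 genes on the left lose less than 1.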

How the data were processed

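RNA of dissected developing seeds had been hybridised to Affymetrix ATH1 arrays, 3 per group in 6 groups. The deposited log2 values were used as the authors gave them. Per the labels, probes were restricted by the authors to those identical in both accessions and perfectly aligned to TAIR10 gene models, with 3 or more probes per set; the normalization used is not given in the sources used here.

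One limma 3.58.1 model (R 4.3.3) with a mean per group was fitted to all 18 arrays and 19755 probe sets, after 11 control sets were left out (12 residual and 5.8 prior degrees of freedom), without a block. Contrasts were the C24 early step, the C24 late step, the Col-0 early step, C24 minus Col-0 early step, and early minus late step. P-values were adjusted by Benjamini-Hochberg, threshold 0.05. The code was tested on simulated data.

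Genes were named through a platform table and RefSeq (11718 of 11763 single-gene sets matched). The genes named are the 15 highest and 15 lowest differences without overlap of the stages; from each of 54 lists up to 4 members with the largest changes, up to 2 against the list's direction and the brightest; the 6 highest and 6 lowest differences between accessions; and the 5 highest and 5 lowest with opposite steps. Apart from the brightest members, all of these genes had to pass the test without overlap of the stages. Other members of the lists, mostly ones that did not pass, were added after their values were seen. The comparison and lists were chosen with earlier results of these data known, 19 lists also with the array's gene names in view. The number of arrays limits the precision.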

Additional observations from a re-analysis of the deposited data

Results flagged for a closer look

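The change from 8-9 to 10-11 days differed between C24 and Col-0 for 1604 probe sets by the test of that difference in the limma model. The 12 named genes at its ends were picked out for this reason, and their differences (C24 change minus Col-0 change, log2) follow. Toward higher in C24 stood IRX15 at 4.05, AT1G75280 and AT3G43960 at 2.80 each, AT2G43660 at 2.79, AT3G23450 at 2.39 and AT1G14930 at 2.31. Toward lower stood AT5G41250 at -3.15, CYP78A9 at -2.49, AT1G14950 at -2.47, AT1G47400 at -2.35, AT1G05450 at -2.20 and AT3G04200 at -2.18.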

How the results depend on the processing

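The overall counts stayed within 1.5 times their reported values under every alternative run, and no listed value reversed. The count past the threshold was 9354 in a fit of the compared groups only, 9836 after a second quantile normalization, 9890 with a trended and robust prior variance, 8666 without the dimmest 30% of probe sets and 9874 with the control probe sets. Centring each array on its median gave 10313, with 56.1% of calls higher against 48.1%, and moved the median difference from 0.02 to 0.08. A fit with the replicate number as a block gave 9894, with 2008 of 2-fold or more as before; deviations of same-numbered C24 arrays of the 2 stages correlated at 0.101, 0.00923 and 0.142, and the numbers were not taken as pairs. With 1 of the 6 arrays left out, 8803 to 9333 probe sets passed (4128 to 4512 higher, 4658 to 4830 lower), 1971 to 2094 by 2-fold, and 298 to 309 of the list members against 327. The C24 minus Col-0 difference then passed for 1095 to 1695 probe sets, and the early minus late difference for 4234 to 5253. No detection calls were used, so values near the lower end of the scale have no measured background.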

Other observations

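A run of 4 neighbouring locus numbers of the major latex protein-like family showed unlike steps in C24. AT1G14930 went from 4.05 to 8.06 and then 11.09 over the 3 harvests, and AT1G14940 from 4.42 to 7.75 and then 12.05. AT1G14950 was at 9.43, 13.05 and 13.40. AT1G14960 was at 4.35, 4.48 and 4.95. The step differed from Col-0 for AT1G14930 and AT1G14950, in opposite directions (2.31 and -2.47), and did not pass that test for AT1G14940 (0.93, limma adjusted p = 0.081).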
